A study of Mus musculus with 40 samples.

Results

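The solute carrier families that move amino acids across membranes were followed in mouse oocytes across 5 follicle stages. Members were probe sets with a single platform symbol of family Slc1, Slc3, Slc6, Slc7, Slc36, Slc38 or Slc43. They comprised 62 genes of 18193 with a single symbol, and 123 probe sets of 45037. The symbols alone chose them, so 3 are genes on the opposite strand of a transporter (Slc7a6os, Slc36a1os and Slc6a19os), and Slc6 and Slc43 also hold carriers of other small molecules.

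Transcript levels were measured on Affymetrix arrays 430A and 430B, whose probe sets differ. All females were SJLB6. Oocytes of primordial follicles were pooled by 400 from mice aged 2 days, those of primary follicles by 90 at 6 days, and those of secondary follicles by 60 at 12 days. Small antral follicles gave pools of 30 oocytes at 17 days of age, and large antral follicles pools of 20 at 24 days. For every stage there were 4 biological replicates per array, which makes 40 samples. For 3 small antral samples on 430B (replicates 2 to 4), the extraction protocol gives the age and pool size of the secondary stage. Age and pool size changed with stage and cannot be told apart from it.

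A growing oocyte takes up amino acids for protein synthesis, for glutathione and as osmolytes, partly by its own carriers and partly through gap junctions from the surrounding granulosa cells. Many carriers of family Slc7 are light chains that reach the plasma membrane only when joined to a heavy chain of family Slc3. Many but not all Slc6 carriers are driven by sodium and chloride, many Slc38 carriers by sodium, and some but not all Slc36 carriers by protons. Several Slc36 carriers lie on lysosomes.

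Signals are linear array intensities scaled to a common trimmed mean of 500, so they are relative levels and not transcripts per oocyte, and fewer cells of a type cannot be told apart from less RNA per cell. Fits used log2(signal + 32), which understates changes of low signals, and the term called means a Benjamini-Hochberg adjusted p under 0.05 in limma's moderated test over all probe sets of an array type. Deposited values of primordial replicates 2 to 4 had the form of a mean with replicate 1. Primordial signals are therefore given after unmixing (2 times the deposited value minus replicate 1), and a change from that stage was called when the deposited and the unmixed values both passed in the same direction. Log2 changes, SE and p-values against primordial oocytes come from the deposited values unless given as unmixed. Values of that form share replicate 1, so their spread is understated and the precision overstated. Log2 changes on 430A carried a median standard error of 0.17, against 0.34 to 0.35 for those on 430B, which are the less precise. The summed signal of 12 oocyte markers was high throughout, though single markers rose or fell between stages. It lay between 126869 and 186313 in all samples past the primordial stage, against 83063 to 132140.3 in primordial ones. The labels do not name the animals behind a sample, so p-values measure the spread between these samples.

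The promoters of Slc3a2 and Slc7a11 are shown because their products join to form the cystine and glutamate exchanger. Slc7a11 carries the letters TGATGNAA, the core of the element through which the amino acid response acts, in 2 places. The sequences are RefSeq's on build GRCm38.p6, 250 bases before to 50 bases after the annotated start, read 5′ to 3′ along the gene, with matches on either strand in capitals. The 2 capital runs of Slc7a11 begin 66 and 47 bases before the start, and lie on the strand of the gene and on the opposite strand.
Slc7a11, chr3:50443564-50443863, minus strand: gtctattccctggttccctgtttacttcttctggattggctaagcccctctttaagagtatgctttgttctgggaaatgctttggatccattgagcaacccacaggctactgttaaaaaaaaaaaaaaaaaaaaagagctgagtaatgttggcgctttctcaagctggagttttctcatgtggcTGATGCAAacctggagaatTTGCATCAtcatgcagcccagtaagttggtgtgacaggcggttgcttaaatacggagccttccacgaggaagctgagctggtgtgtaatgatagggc
Slc3a2, chr19:8713848-8714147, minus strand: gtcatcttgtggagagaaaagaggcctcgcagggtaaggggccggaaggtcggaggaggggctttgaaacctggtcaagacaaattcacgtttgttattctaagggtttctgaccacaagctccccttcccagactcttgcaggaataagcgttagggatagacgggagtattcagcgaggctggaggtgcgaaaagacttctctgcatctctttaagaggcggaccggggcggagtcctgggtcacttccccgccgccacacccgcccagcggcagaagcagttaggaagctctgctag
The motif was present in 1304 of 32851 promoters of this length (3.97%) and in 5 of 64 member promoters (7.81%), which belong to 4 of 45 member genes with an entry (8.89%): Slc1a4, Slc6a21, Slc7a7 and Slc7a11. A match is a description of letters and shows no binding.

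More members were called at the start of growth than at any later step, as was also the case for all probe sets (31.5%, then 11.6%, 10.7% and 6.02% of both array types). Against primordial oocytes, 14 of 54 tested member genes rose in primary oocytes and 5 fell. The 14 that rose were Slc3a2, Slc6a4, Slc6a6, Slc6a7, Slc6a9, Slc6a20b, Slc7a2, Slc7a5, Slc7a6os, Slc7a7, Slc7a9, Slc36a3, Slc38a7 and Slc43a3. The 5 that fell were Slc36a4, Slc38a1, Slc38a2, Slc38a6 and Slc38a10. Members were called in 13 of 34 genes read on 430A (38.2%, against 44.5% of all probe sets) and in 6 of 20 read on 430B (30.0%, against 20.8%). By direction, 10 rose and 3 fell on 430A, where 21.4% of all probe sets rose and 23.1% fell, and 4 rose and 2 fell on 430B, where 9.26% rose and 11.5% fell. The median log2 change over the 54 genes was 0.20, against -0.08 over all probe sets of 430A and -0.23 of 430B. Scaling arrays to their median moved those medians to 0.06 and 0.05, and rising calls to 60.3% of all calls on 430A (48.1% before) and 71.1% on 430B (44.6% before). It gave 16 members that rose and 5 that fell. Relative to the median of all probe sets, the 14 members that rose lay between 0.76 and 3.34 and the 5 that fell between -2.48 and -0.68.

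Secondary against primary oocytes, 3 rose (Slc3a2, Slc6a15 and Slc43a3) and 4 fell (Slc6a9, Slc7a2, Slc7a5 and Slc38a7). That was 6 of 34 genes on 430A (17.6%, against 19.4% of all probe sets) and 1 of 20 on 430B (5.0%, against 5.24%). Of all probe sets 10.5% rose and 8.89% fell on 430A, and 3.31% rose and 1.94% fell on 430B. Small antral against secondary oocytes, 3 rose (Slc6a15, Slc7a6os and Slc7a11) and 2 fell (Slc6a7 and Slc38a10). These were 3 of 34 genes on 430A (8.82%, against 17.4%) and 2 of 20 on 430B (10%, against 5.14%). Of all probe sets 6.81% rose and 10.6% fell on 430A, and 2.05% rose and 3.09% fell on 430B. Large against small antral oocytes, limma called 0 as risen (4 at an unadjusted p under 0.05) and 2 as fallen, Slc6a20b and Slc38a10, both on 430A (5.88%, against 11.4%, with 4.98% rising and 6.44% falling). On 430B limma called 0 of 20 (4 at an unadjusted p under 0.05), against 1.55% of all probe sets (0.398% rising and 1.16% falling).

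Over the whole growth phase, large antral against primary oocytes, 7 members rose and 6 fell. This contrast shares its arrays with the steps within it. Slc3a2, Slc6a15, Slc6a20a, Slc7a6os, Slc7a11, Slc38a2 and Slc43a3 rose, and Slc6a4, Slc6a7, Slc6a20b, Slc7a5, Slc7a9 and Slc38a10 fell. All Slc38a2 signals of both stages lay below 100 on the probe set that gave this call. Calls came to 11 of 34 genes on 430A (32.4%, against 41.3% of all probe sets) and 2 of 20 on 430B (10%, against 14.8%). Of all probe sets 19.6% rose and 21.6% fell on 430A, and 7.16% rose and 7.63% fell on 430B. In the 5 comparisons together, 22 of the 54 tested genes were called at least in 1 comparison and 32 in none. The matching share over all probe sets was not counted, so these 2 counts have no reference. The other 8 genes (Slc1a4, Slc1a6, Slc6a12, Slc6a14, Slc6a16, Slc7a8, Slc7a15 and Slc38a5) had no probe set that reached a signal of 100 in 4 of 20 arrays. Signals of the 29 untested member probe sets lay between 1.3 and 202.3, with a median of 24.5.

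**Figure D1:**
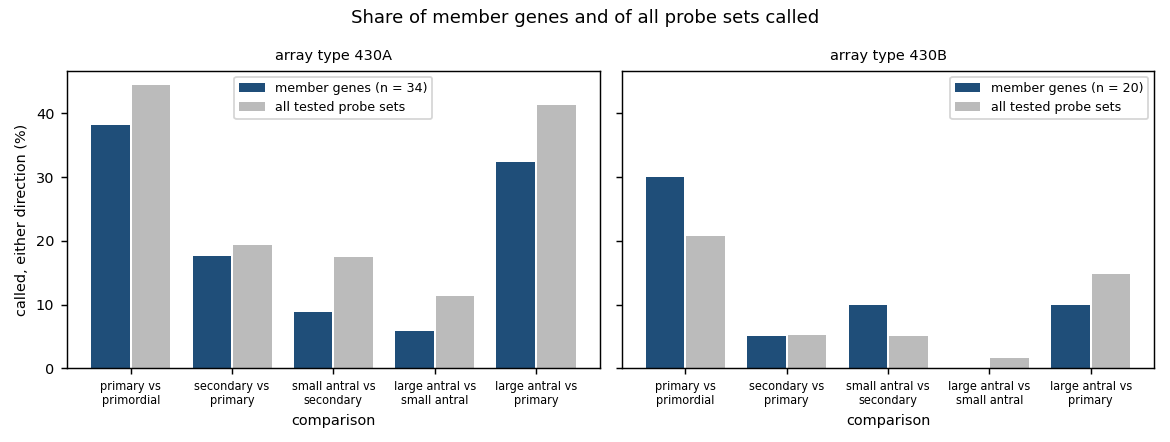
Share of called member genes (dark bars; 34 genes on 430A, 20 on 430B) and of all tested probe sets (grey bars), in percent, for the 5 comparisons. Member shares lie below the grey bar in all 5 comparisons on 430A, and above it on 430B for primary against primordial (30.0% against 20.8%) and small antral against secondary (10% against 5.14%).

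**Figure D2:**
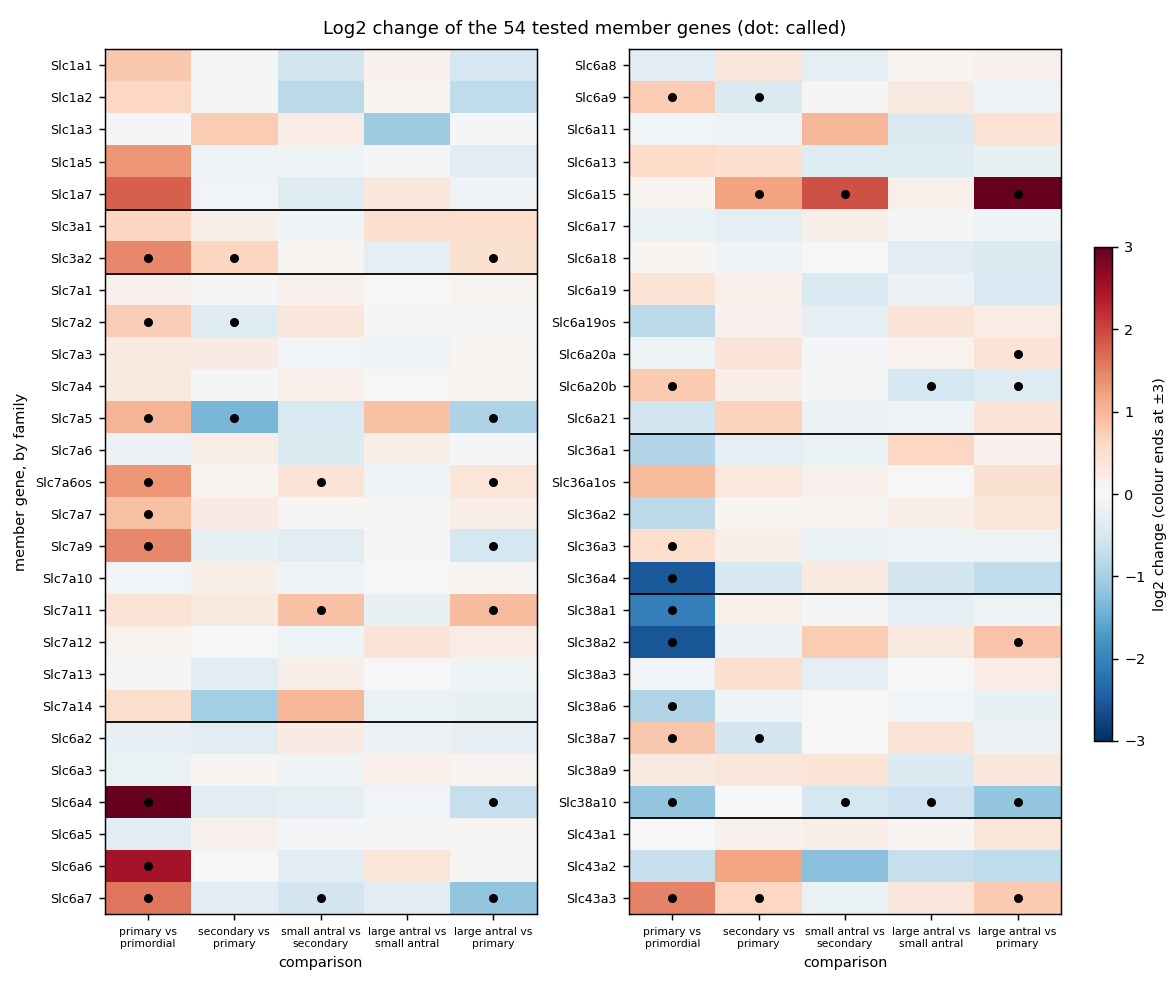
Log2 change of the 54 tested member genes (rows, grouped by family) in the 5 comparisons (columns), red for a rise and blue for a fall, with a black dot where a gene was called; colours end at a log2 change of ±3. The left column, primary against primordial, holds 19 dots, of which 4 of the 5 falls lie in Slc38, and Slc6a15 is the gene with the strongest rise later on.

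Slc3a2, the heavy chain shared by many Slc7 light chains, rose at the first step and again at the next (430A). Its signals were 1466, 1524, 1385 and 1678 in the 4 primary samples, against 609.9, 510.3, 403 and 461 in primordial samples, a log2 change of 1.45 ± 0.10 (SE; limma, adjusted p = 1.4e-11) or 2.73-fold, and 1.56, adjusted p = 2.1e-09 with unmixed values. Secondary samples read 2622, 2366, 2171 and 2416, a log2 change of 0.65 ± 0.10 against primary (limma, adjusted p = 6.7e-05). Neither step had overlapping samples. Small antral samples read 2815, 2289, 2159.9 and 2792 and large antral samples 2096, 2021, 2129.8 and 2047. The large antral samples all lay below the small antral ones, a log2 change of -0.26 ± 0.10 that was not called (limma, adjusted p = 0.08), except when small antral replicate 3 was left out (-0.33). They remained above primary samples by 0.45 ± 0.10 (limma, adjusted p = 7e-04). Slc3a1, the other heavy chain, was not called in any comparison.

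Slc7a11, the cystine and glutamate light chain, changed at a different time from its heavy chain on 430A. Its signals were 974, 648, 699.8 and 987 in small antral samples, against 496, 411, 356 and 454 in secondary samples, a log2 change of 0.88 ± 0.14 (limma, adjusted p = 1.2e-04). No small antral sample fell within the secondary range. Mean signals were 347 ± 32.1 in primary and 325 ± 82.7 in primordial oocytes (SD, n = 4 each), a step that was not called with unmixed values (0.11, adjusted p = 0.61). Large antral samples averaged 691 ± 34.6 (SD, n = 4), with a log2 change of 0.94 ± 0.14 against primary (limma, adjusted p = 1.4e-05).

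The Slc7a11 probe set on 430B followed another course. It fell by 1.31 on the log2 scale in primary against primordial oocytes (SE 0.16; limma, adjusted p = 5.1e-07; unmixed -1.70, adjusted p = 2.3e-06). Its primary samples read 745, 619, 722 and 658, against 1150.0, 2668, 2722 and 3260.0 in primordial samples. At the step where the 430A probe set rose, its change was 0.43 ± 0.14, with no overlap of samples but no call (limma, adjusted p = 0.085). The direction of Slc7a11 at the start of growth therefore differs between its probe sets.

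Slc7a5, the light chain for leucine and other large neutral amino acids, peaked in primary oocytes (430A). Primary samples read 789, 521, 587 and 528, against 272, 486, 255 and 231 in primordial samples. The log2 change was 1.02 ± 0.33 (SE; limma, adjusted p = 0.01; unmixed 0.93, adjusted p = 0.038). Secondary samples read 260.1, 384, 330.1 and 50.6, lower than primary by a log2 change of -1.36 ± 0.35 (limma, adjusted p = 0.01), with replicate 4 far below the others. Small antral samples read 83.0, 166, 231 and 139 and large antral samples 312, 311, 255 and 322. Large antral samples all lay below primary ones, with a log2 change of -0.93 ± 0.35 (limma, adjusted p = 0.042).

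The rise of Slc7a5 was lost with a pseudocount of 8 (1.08), without the filter (1.02), and without primordial replicate 1 (1.0), 3 (0.99) or 4 (0.96) or primary replicate 1 (0.90), 3 (1.03) or 4 (1.08). The call of large antral against primary was lost whichever replicate of either stage was left out (log2 changes between -0.99 and -0.80), under quantile normalization (-0.88), with a pseudocount of 8 (-0.98) and without the filter (-0.93). The fall to the secondary stage kept its call in these settings. Without secondary replicate 4, small antral against secondary was called at -0.98, and with only the small and large antral arrays in the fit, large against small antral was called at 0.89.

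Slc7a9 and Slc7a7, a further pair of light chains, also rose at the start of growth. Slc7a9, the cystine and dibasic amino acid light chain that pairs with Slc3a1, averaged 514 ± 35.3 in primary and 209 ± 45.9 in primordial oocytes (SD, n = 4 each; log2 change 1.44 ± 0.13, limma, adjusted p = 1.6e-09). It then fell by 0.52 in large antral against primary oocytes (limma, adjusted p = 0.0029). Slc7a7, a light chain for cationic and neutral amino acids, averaged 210.2 ± 52.5 in primary and 94.1 ± 47.9 in primordial oocytes (SD, n = 4 each; 0.88 ± 0.18, limma, adjusted p = 1.6e-04). On 430B, Slc7a7 gave 0.50 ± 0.43 on a further probe set and was not called there. Slc7a6, its close relative, was not called in any comparison, with stage means between 91.1 in small antral and 136 in primordial oocytes on the probe set by which it was counted. A further Slc7a6 probe set on 430A was called in large antral against primary oocytes (-0.73 ± 0.26, limma, adjusted p = 0.03), with overlapping samples.

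Slc7a6os, a gene on the strand opposite Slc7a6 and not a carrier itself, read 2269.5, 2317, 2383 and 2017 in primary samples, against 807, 951, 1009.6 and 1071 in primordial samples (430B). The log2 change was 1.32 ± 0.10 (limma, adjusted p = 1.4e-10), with no overlap. It rose again at the small antral stage (3209.8, 3051, 3097 and 3321 in small antral samples, against 2182, 2438, 2185 and 2761 in secondary samples), by 0.41 ± 0.10 (limma, adjusted p = 0.015). That later call was lost under median scaling (0.40), without secondary replicate 1 (0.37) or 3 (0.37), and without the small antral arrays of conflicting protocol (0.43). Large antral oocytes exceeded primary ones by 0.36 ± 0.10 (limma, adjusted p = 0.013), a call lost without primary replicate 4 (0.31) or large antral replicate 3 (0.32). The dimmer Slc7a6os probe set, also on 430B, gave -0.25, -0.96 and -0.07 in these comparisons, none of them called.

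The carriers of arginine and lysine, Slc7a1 and Slc7a2, were read by 3 probe sets each. Slc7a1 stayed near the signal minimum on 430A (stage means between 109.7 and 128.4). On 430B, the brighter Slc7a1 probe set read 6659.7, 5876, 4409 and 4544 in primary samples, against 490.1, 2545, 1794 and 2951 in primordial samples, a log2 change of 2.24 ± 0.23 (limma, adjusted p = 3.5e-08; unmixed 1.69, adjusted p = 2.9e-04). Secondary samples read 7936, 8466, 8038 and 8350.4, higher than primary by 0.63 ± 0.12 (limma, adjusted p = 0.0025). Neither step had overlapping samples. The dimmer 430B probe set changed by 0.86 ± 0.15 against primordial with deposited values (limma, adjusted p = 1.1e-04) and 0.47, adjusted p = 0.13 with unmixed ones, so it was not called.

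Slc7a2 peaked in primary oocytes on 430B. Primary samples read 5278, 4749.8, 5082 and 4377, against 2601, 2211, 2620.1 and 1521 in primordial samples (1.01 ± 0.12, limma, adjusted p = 1.9e-07). Secondary samples read 2410.1, 3022, 2697 and 2207 (-0.91 ± 0.11 against primary, limma, adjusted p = 2.2e-05) and small antral samples 1367, 1748, 1747 and 1552 (-0.67 ± 0.11 against secondary, limma, adjusted p = 6.3e-04). None of the 3 steps had overlapping samples. The 430A probe set by which the gene was counted rose by 0.74 ± 0.12 at the start of growth (limma, adjusted p = 1.7e-05; 497, 618, 563 and 587 in primary samples, against 275, 419, 479 and 441 in primordial samples). With only the arrays of those stages in the fit, that call was lost (0.74).

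In secondary oocytes the same 430A probe set read 348, 495, 448 and 418, against the primary values above (-0.39 ± 0.12, limma, adjusted p = 0.027). This call was lost under median scaling (-0.38), with only those stages fitted (-0.39), and without primary replicate 2 (-0.35), 3 (-0.39) or 4 (-0.37) or secondary replicate 1 (-0.30) or 4 (-0.38). Later samples on 430A returned near the primary level (608, 505, 487 and 571 in small antral samples), a step called only under quantile normalization (0.41) and without secondary replicate 2 (0.40), while the 430B probe set did not. The other Slc7a2 probe set on 430A was not called in any comparison.

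**Figure D3:**
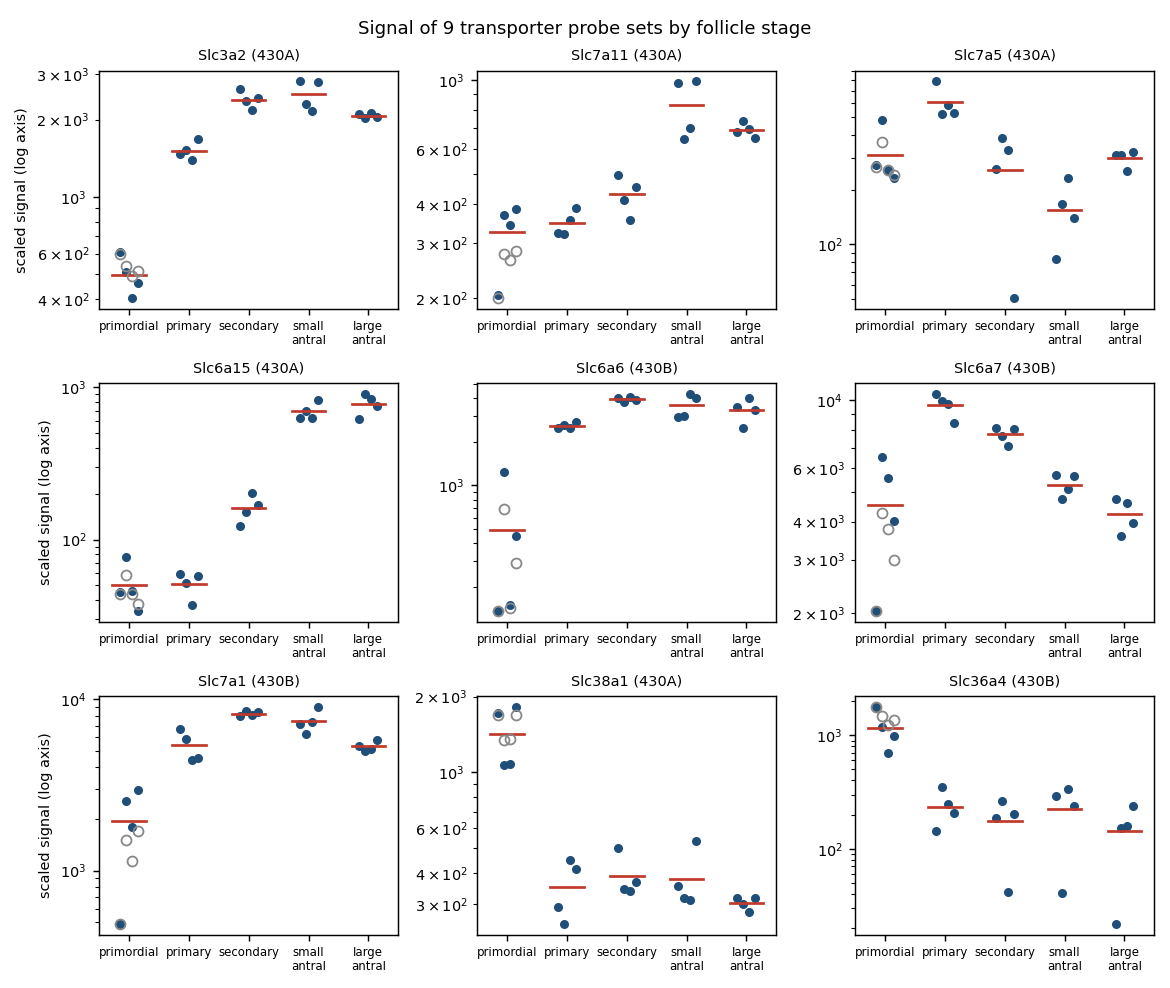
Scaled signal (log axis) of 9 member probe sets in the 4 samples of each of 5 stages (blue points; primordial values unmixed), with stage means (red lines) and deposited primordial values (open grey circles). Slc3a2, Slc6a6, Slc6a7 and Slc7a1 stand higher in primary than in primordial samples, Slc38a1 and Slc36a4 lower, and Slc6a15 climbs at the secondary and small antral stages.

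Slc6 held 5 of the 14 rises at the start of growth and 0 of the 5 falls among its 18 tested genes (2 falls at an unadjusted p under 0.05), with a median log2 change of -0.01. Of all probe sets 44.5% were called on 430A and 20.8% on 430B at that step, against 27.8% of the Slc6 genes. Slc6a6, which takes up taurine, an osmolyte, was called on both array types. On 430A its signals were 382, 322, 271 and 359 in primary samples, against 32.1, 27.4, 27.4 and 55.4 in primordial samples, a log2 change of 2.49 ± 0.16 (limma, adjusted p = 4.1e-12). On 430B they were 2509, 2623, 2479.8 and 2734 in primary samples, against 137, 1247, 151 and 450.4 in primordial samples. The log2 change was 3.19 ± 0.28 with deposited values (limma, adjusted p = 2.4e-09) and 2.82 ± 0.38 with unmixed ones (adjusted p = 3.8e-06). Primary samples lay above all primordial ones on each. In secondary against primary oocytes 430B gave a further 0.60 ± 0.13 (limma, adjusted p = 0.0075), while 430A gave 0.02 ± 0.16 (adjusted p = 0.95). Without small antral replicate 4, small antral against secondary was called on 430A (-0.48).

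Slc6a4, the serotonin carrier, was near the floor in primordial oocytes (430A). Its signals were 501, 388, 487 and 399 in primary samples, against 10.8, 36.5, 35.9 and 17.2 in primordial samples. The log2 change was 3.27 ± 0.16 (limma, adjusted p = 2.3e-14; unmixed 3.08, adjusted p = 2.8e-11), and the groups were far apart. Means then lay at 353 ± 73.0 in secondary, 279 ± 52.5 in small antral and 259 ± 15.9 in large antral oocytes (SD, n = 4 each). Neighbouring growing stages overlapped, and large antral oocytes were lower than primary ones by a log2 change of -0.70 ± 0.15 (limma, adjusted p = 8.7e-04).

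Slc6a7, a proline carrier known best from brain, gave high signals (430B). Primary samples read 10468, 9964, 9764 and 8399.7, against 2037, 6542, 5545 and 4026 in primordial samples, a log2 change of 1.60 ± 0.15 (limma, adjusted p = 9.6e-09; unmixed 1.20, adjusted p = 2.1e-04). Secondary samples read 8112, 7634, 7102 and 8071, all below the primary ones, but the change of -0.32 ± 0.10 was not called (adjusted p = 0.079) except under quantile normalization (-0.32) and without primary replicate 4 (-0.38). Small antral samples read 5670.3, 4738, 5123 and 5636, all below the secondary ones, with a log2 change of -0.55 ± 0.10 (limma, adjusted p = 0.0015). That call was lost without the 3 small antral arrays of conflicting protocol (-0.44). Large antral samples read 4732, 3585, 4611 and 3968, and large antral against primary came to -1.19 ± 0.10 (limma, adjusted p = 1.7e-08). Large antral samples were again all below small antral ones (-0.33 ± 0.10, adjusted p = 0.12), called only under quantile normalization (-0.36).

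Slc6a15, a carrier of branched-chain amino acids and proline, rose late (430A). Secondary samples read 122, 151, 201 and 169, against 59.2, 51.9, 37.0 and 57.5 in primary samples (1.20 ± 0.16, limma, adjusted p = 2e-05). Small antral samples read 630.1, 695, 624 and 823 (1.92 ± 0.16 against secondary, limma, adjusted p = 7.7e-08), and large antral samples 615, 895, 839 and 751. The large antral samples overlapped the small antral ones, and the other 2 steps had no overlap. Large antral against primary came to 3.27 ± 0.16 (limma, adjusted p = 3.3e-12), 9.64-fold on the log2(signal + 32) scale and 15.1-fold between mean signals. In primordial oocytes Slc6a15 averaged 50.6 ± 18.7 (SD, n = 4), near the primary level. That mean and every primary sample lay below 100, so the 15.1-fold has a reference near the floor. The later stages, where the gene was high, sufficed for it to be tested.

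Slc6a9, a glycine carrier that serves cell volume control in mouse oocytes and early embryos, rose at the start of growth on both of its 430A probe sets. On the brighter one, primary samples read 2633, 3884, 3917 and 3527, against 2171, 2348, 1729 and 1932 in primordial samples (0.75 ± 0.14, limma, adjusted p = 5e-05). On the dimmer one the change was 0.52 ± 0.13 (adjusted p = 0.0014). Primary and primordial samples did not overlap on either. Secondary samples read 2260.4, 3076, 2865 and 2049.7 on the brighter probe set, a change of -0.44 ± 0.14 against primary with overlapping samples (limma, adjusted p = 0.034). It was no longer called under median scaling (-0.44), without the filter (-0.44), with only those stages fitted (-0.44), on the dimmer probe set (-0.35), and without primary replicate 2 (-0.39), 3 (-0.38) or 4 (-0.43) or secondary replicate 1 (-0.39) or 4 (-0.34). Large against small antral, the dimmer Slc6a9 probe set rose by 0.60 ± 0.13 (limma, adjusted p = 0.006) and the brighter one was not called (0.27 ± 0.14, adjusted p = 0.25).

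Slc6a20a and Slc6a20b, close relatives that carry proline and other imino acids, may be read in part by each other's probes. Slc6a20b (430A) read 494, 646, 657 and 564 in primary samples, against 368, 221, 381 and 257 in primordial samples (0.79 ± 0.12, limma, adjusted p = 4.6e-06). It read 403, 459, 441 and 480.1 in large antral samples, against 609, 641, 769.5 and 599 in small antral samples (-0.52 ± 0.12, limma, adjusted p = 0.0069). Neither step had overlap. Large antral against primary gave -0.38 ± 0.12 (limma, adjusted p = 0.013; -0.32 and not called without primary replicate 3), and the 430B probe set gave -0.69 ± 0.22 (adjusted p = 0.033). At the large antral step the 430B probe set gave 0.33 ± 0.22 and was not called. Slc6a20a (430A) read 483, 570.4, 566 and 525 in large antral samples, against 413, 294, 531 and 379 in primary samples, with overlap (0.41 ± 0.15, limma, adjusted p = 0.033). This call was lost without primary replicate 2 (0.28) or 4 (0.39) or large antral replicate 2 (0.38), 3 (0.38) or 4 (0.42). Secondary against primary was called for Slc6a20a only without primary replicate 3 (0.51) or secondary replicate 2 (0.47).

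Of the 7 tested Slc38 genes, 4 fell and 1 rose at the start of growth, with a median log2 change of -0.91, beside a call in 31.5% of all probe sets of both array types. That share was 44.5% on 430A and 20.8% on 430B. Slc38a1, which takes up glutamine and other small neutral amino acids, fell on both array types. On 430A its signals were 293, 251, 451 and 415 in primary samples, against 1727, 1068, 1079 and 1816 in primordial samples, a log2 change of -2.04 ± 0.17 (limma, adjusted p = 4.5e-10). On 430B (a probe set whose suffix marks probes shared by several transcripts) they were 34.6, 39.1, 64.3 and 18.3 in primary samples, against 1981, 1498, 1296 and 1144 in primordial samples, a log2 change of -4.65 ± 0.39 (adjusted p = 1.2e-09). Neither had overlap. On 430B all primary samples lay below 100, and the primordial samples, where the probe set was high, sufficed for it to be tested. Its large antral mean, the highest past the primordial stage, was 1.48-fold the primary one. No later step was called on either probe set, which on 430B was read from such low signals. The 430A means lay between 305 in large antral and 388 in secondary oocytes.

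Slc38a2, its relative that responds to amino acid supply, fell on 430A. Signals were 35.4, 9.3, 45.6 and 8.6 in primary samples, against 276, 358, 341 and 313 in primordial samples (-2.56 ± 0.24, limma, adjusted p = 2.6e-09). They were 61.1, 49.2, 73.0 and 89.3 in large antral samples, above every primary sample (0.86 ± 0.27, limma, adjusted p = 0.014) but still below 100, the signal that 4 arrays had to reach for a probe set to be tested. This probe set reached it in the 4 primordial arrays and in no other, so it entered the fit through the stage where it was high. The small antral step of 0.77 ± 0.27 was not called (adjusted p = 0.055), except under quantile normalization (0.78), without the filter (0.77), with the filter at 200 (0.77), with all 20 arrays (0.77) and without small antral replicate 2 (0.93). The 2 probe sets on 430B read Slc38a2 at means of 491 and 447 in primary and 387 and 505 in primordial oocytes, and were not called in any comparison. The fall of Slc38a2 therefore rests on 1 of its 3 tested probe sets.

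Slc38a10 and Slc38a6, carriers with less studied substrates, fell as well. Slc38a10 (430A) read 528, 707, 742 and 582 in primary samples, against 1236, 1956, 2007 and 1878 in primordial samples, with no overlap (-1.15 ± 0.16, limma, adjusted p = 8.5e-07). It fell further at the small antral stage (531, 290.4, 486 and 444 in small antral samples, against 607, 797, 540.0 and 612 in secondary samples; -0.53 ± 0.16, limma, adjusted p = 0.028), with no overlap. Large antral samples read 262, 244, 294 and 273 (-0.62 ± 0.16 against small antral, limma, adjusted p = 0.018), overlapping through small antral replicate 2. The small antral call was lost under median scaling (-0.50), with only those stages fitted (-0.53) and without secondary replicate 2 (-0.42) or small antral replicate 2 (-0.36), and the large antral call without small antral replicate 1 (-0.52) or large antral replicate 2 (-0.58). Large antral against primary gave -1.15 ± 0.16 (limma, adjusted p = 8.5e-06). The other 3 tested probe sets of Slc38a10 were not called in any comparison. Slc38a6 averaged 832 ± 51.6 in primary and 1696 ± 183 in primordial oocytes (SD, n = 4 each; -0.91 ± 0.12, limma, adjusted p = 2.4e-06). A further Slc38a6 probe set, also on 430B, gave -0.17 ± 0.49 and was not called.

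Slc38a7, which exports glutamine from lysosomes, was the Slc38 gene that rose (430B). Primary samples read 2579, 2618, 3122 and 2852, against 1680.4, 1412, 1446 and 1519 in primordial samples (0.80 ± 0.10, limma, adjusted p = 5.8e-07). Secondary samples read 1796, 2281, 1779.9 and 1822, all below primary (-0.54 ± 0.10, limma, adjusted p = 0.0017). Large antral samples read 2526, 2432, 2399.6 and 2503, against 1808, 1935, 1977 and 1853 in small antral samples, without overlap. That step of 0.38 ± 0.10 was not called (adjusted p = 0.064), except with the filter at 200 (0.38) and with all 20 arrays (0.38).

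Slc38a9, the lysosomal arginine sensor that signals to mTORC1, had 7 tested probe sets, all on 430B, which did not move together. Primary against primordial, 1 probe set rose by 0.70 ± 0.15 (limma, adjusted p = 7.6e-04), while 2 others gave -1.98 ± 0.44 (adjusted p = 0.0012) and -1.32 ± 0.17 (adjusted p = 1.8e-06). Primary samples averaged 962, 82.9 and 735 on these 3 probe sets in the same order, and primordial samples 515, 423 and 2175. The gene was counted by the brightest probe set, which was not called. Slc38a3, known from work on mouse follicles as a carrier of the cumulus cells around the oocyte, was not called in any comparison. Its 430A means were 147 ± 74.3 in primordial, 123 ± 24.4 in primary, 191 ± 57.7 in secondary, 167 ± 95.9 in small antral and 149.5 ± 39.7 in large antral oocytes (SD, n = 4 each).

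Of the 5 tested Slc36 genes, 1 rose and 1 fell at the start of growth and 0 were called later (0 at an unadjusted p under 0.05). All were read on 430B, where 20.8% of all probe sets were called at the start of growth and 1.55% to 14.8% later. Slc36a4, a carrier of proline and tryptophan, read 142, 348, 248 and 205 in primary samples, against 1771, 1194, 693 and 986 in primordial samples (430B). The log2 change was -2.52 ± 0.50 (limma, adjusted p = 3.8e-04; unmixed -2.14, adjusted p = 0.0045), and the groups did not overlap. Slc36a3 averaged 1274 ± 229 in primary and 813 ± 232 in primordial oocytes (SD, n = 4 each; 0.53 ± 0.15, limma, adjusted p = 0.009). Slc36a1, a proton-coupled exporter of lysosomes, read 557, 534, 474 and 487 in primary samples, against 1137, 704, 644 and 859.9 in primordial samples, without overlap, but was not called with unmixed values (-0.64, adjusted p = 0.21).

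Slc36a1 was scattered at the small antral stage, with 100.1, 561, 453 and 582, against 289.9, 393, 620.1 and 414 in secondary samples. The low value is replicate 1, the small antral 430B array whose protocol gives that stage's own age and pool size. With that array as the only small antral sample on 430B, small antral against secondary gave -1.76 and large against small antral 2.18, and both were called in a fit that pools the spread of all stages and assumes the lone sample varies alike. With all 4 arrays the values were -0.19 ± 0.36 (adjusted p = 0.89) and 0.62 ± 0.36 (adjusted p = 0.57), not called.

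The Slc1 family, which carries glutamate and small neutral amino acids, had 0 called genes of 5 in each comparison. At the start of growth 44.5% of all probe sets were called on 430A and 20.8% on 430B. Later shares ranged from 11.4% to 41.3% on 430A and from 1.55% to 14.8% on 430B. At an unadjusted p under 0.05 limma gave 3 rises at the start of growth and 1 fall in each of the comparisons that involve an antral stage. Slc1a5, a glutamine exchanger, read 798, 757, 558 and 612 in primary samples, against 154, 106, 643 and 753 in primordial samples (430B). Overlap came from primordial replicates 3 and 4, which were high, and the change of 1.33 ± 0.28 with deposited values was 1.05, adjusted p = 0.053 with unmixed ones. The call was made under quantile normalization (1.58), median scaling (1.61), the filter at 200 (1.33) and without primordial replicate 3 (1.53) or 4 (1.59). Slc1a1, which carries glutamate and cysteine, had low signals of 201, 64.5, 91.6 and 67.5 in primary samples, against 24.4, 59.5, 123 and 61.2 in primordial samples (0.80 ± 0.35, limma, adjusted p = 0.054). Its 5 stages all overlapped their neighbours in rank.

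Slc43a3, which carries purine nucleobases rather than amino acids, rose in 3 of the 5 comparisons (430A). Primary samples read 125, 239, 148 and 143, against 5.1, 121, 88.6 and 99.7 in primordial samples (1.48 ± 0.23, limma, adjusted p = 7.3e-06; unmixed 0.97, adjusted p = 0.013). Secondary samples read 264, 290.2, 278 and 215, overlapping the primary ones through primary replicate 2 (0.61 ± 0.18, limma, adjusted p = 0.022). Small antral samples read 221, 245, 243 and 191, with no call against secondary ones (-0.19 ± 0.18, adjusted p = 0.55). Large antral samples read 410.3, 227, 272 and 298, with no call against small antral ones (0.35 ± 0.18, adjusted p = 0.23), and overlapped the primary ones (0.78 ± 0.18 against primary, limma, adjusted p = 0.0018). The primordial step lost its call with only those stages fitted (1.48) and without primary replicate 2 (1.32). The secondary step lost it with all 20 arrays (0.61) and without primary replicate 1 (0.52), 3 (0.59) or 4 (0.57) or secondary replicate 2 (0.57) or 3 (0.59). Slc43a2, a carrier of large neutral amino acids, was not called, although its secondary samples (365, 343, 416 and 362) all lay above the primary ones (52.3, 225, 153 and 208). Its small antral samples (211, 243, 189 and 23.8) all lay below those secondary ones.

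Probe sets of a gene did not always move alike. Of 24 member genes with several tested probe sets, 14 had at least 1 called in primary against primordial oocytes. Single probe sets were called there in 44.5% of all on 430A and 20.8% on 430B. Genes outside these families were not counted in this way. In 3 of them (Slc6a6, Slc6a9 and Slc38a1) every tested probe set was called in the same direction, and in 1 (Slc38a9) calls ran both ways. In 4 genes (Slc7a1, Slc7a4, Slc7a11 and Slc38a9) the calls lay outside the probe set by which the gene was counted.

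**Figure D4:**
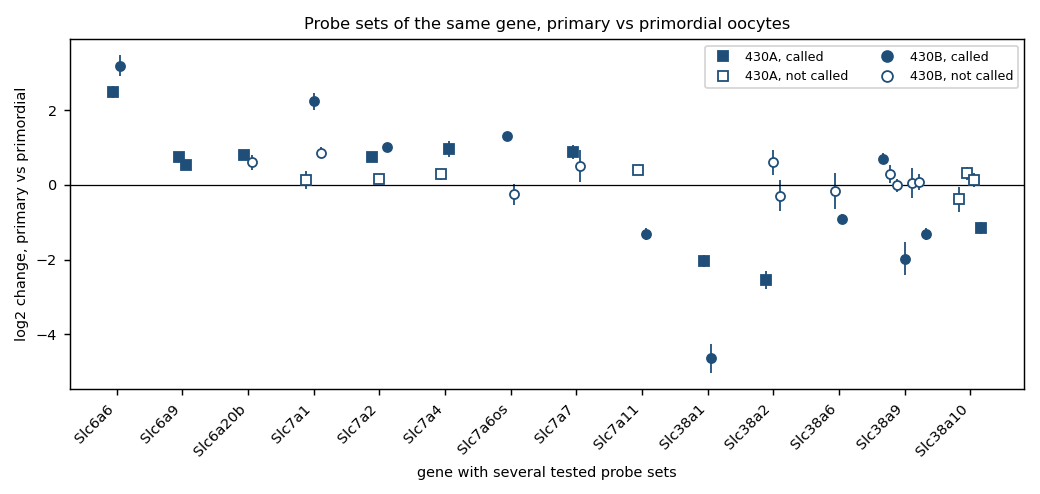
Log2 change, primary against primordial oocytes (deposited values, bars ± SE), of each tested probe set of the 14 genes with several probe sets and at least 1 call; squares are 430A, circles 430B, filled where called. Slc38a1 stands at -2.04 and -4.65 on its probe sets, while Slc7a1 shows 2.24 beside 0.13 and Slc38a2 -2.56 beside 0.60.

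Carriers outside these families were counted from a list of 22 amino acid and peptide carriers, of which 17 were tested. Primary against primordial, 5 rose and 2 fell, beside a call in 31.5% of all probe sets of both array types. That share was 44.5% on 430A, from which genes were read first, and 20.8% on 430B. Slc25a22, a mitochondrial glutamate carrier, read 726, 381, 644 and 612 in primary samples, against 69.0, 165, 33.2 and 56.1 in primordial samples (2.58 ± 0.21, limma, adjusted p = 3.3e-10). Slc16a10, which carries aromatic amino acids, rose by 1.19 ± 0.12 (adjusted p = 1.7e-08). Slc25a13, the mitochondrial aspartate and glutamate exchanger, fell by 1.08 there (adjusted p = 7.5e-05). It then rose at the secondary stage (225, 225, 343 and 354 in secondary samples, against 100.2, 34.7, 119 and 65.2 in primary samples; 1.55 ± 0.21, limma, adjusted p = 2.8e-05) and in small antral against secondary oocytes (1.08 ± 0.21, adjusted p = 0.0011).

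Slc15a4, which moves histidine and peptides out of lysosomes, rose at each of the 4 steps. Large antral samples read 2914, 2526, 2160.2 and 2415, against 807, 976, 737 and 924 in primary samples (1.51 ± 0.11, limma, adjusted p = 2e-09). Slc17a5, a lysosomal sialic acid carrier, was lower in secondary than in primary oocytes (-1.39 ± 0.18, limma, adjusted p = 4.2e-05). The later shares of all probe sets called were 11.6% for secondary against primary, 10.7% for small antral against secondary, 6.02% for large against small antral and 26.8% for large antral against primary. In the same order they were 19.4%, 17.4%, 11.4% and 41.3% on 430A, and 5.24%, 5.14%, 1.55% and 14.8% on 430B. The list gave 3 rises and 1 fall in secondary against primary oocytes, 2 and 2 in small antral against secondary, 2 rises alone in large against small antral, and 4 and 3 in large antral against primary.

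Genes of amino acid sensing by mTORC1, 32 of 35 tested, moved in both directions: 5 rose and 7 fell in primary against primordial oocytes, with a median log2 change of -0.07 with deposited and 0.25 with unmixed values. Calls were made in 31.5% of all probe sets of both array types, 44.5% on 430A and 20.8% on 430B. Rraga, a GTPase that recruits mTORC1 to the lysosome, read 3613, 2753, 2947 and 2571 in primary samples, against 414, 331, 379 and 437 in primordial samples (2.83 ± 0.11, limma, adjusted p = 5.2e-16). Lamtor3, part of the lysosomal anchor of those GTPases, fell by 1.13 there (adjusted p = 1.1e-10). It rose at the secondary stage (0.58 ± 0.08, adjusted p = 5.7e-05) and in large antral against primary oocytes (0.83 ± 0.08, adjusted p = 1.2e-07). Rptor, the mTORC1 subunit that binds substrates, was lower in large antral than in primary oocytes (-1.21 ± 0.11, adjusted p = 6.8e-08). Later, 3 rose and 4 fell in secondary against primary oocytes, 1 rose and 4 fell in small antral against secondary, 3 fell in large against small antral, and 4 rose and 8 fell in large antral against primary. In the same order, 19.4%, 17.4%, 11.4% and 41.3% of all probe sets were called on 430A. Those shares were 5.24%, 5.14%, 1.55% and 14.8% on 430B.

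Of the amino acid response list, 20 of 22 genes were tested, and 6 rose and 2 fell in primary against primordial oocytes, beside a call in 31.5% of all probe sets of both array types. That share was 44.5% on 430A and 20.8% on 430B. Atf4, the transcription factor at the centre of the response, read 2579, 2090.4, 1573 and 2399.8 in primary samples, against 989, 671, 711 and 516 in primordial samples (1.34 ± 0.13, limma, adjusted p = 3.6e-09). It rose again in secondary against primary oocytes (0.74 ± 0.12, adjusted p = 2.8e-04). Ddit3, a factor downstream of Atf4, rose at the same steps (1.31 ± 0.15, adjusted p = 9.5e-08, and 0.98 ± 0.13, adjusted p = 2.6e-05). Eif2ak4, the kinase that senses uncharged tRNA, read 790.2, 995, 877 and 1005 in large antral samples, against 286, 394, 303 and 451 in primary samples (1.30 ± 0.17, limma, adjusted p = 4e-06). Impact, an inhibitor of that kinase's activation, was lower in large antral than in primary oocytes (-2.0 ± 0.15, adjusted p = 2.3e-09).

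Biosynthetic enzymes of the list differed among themselves. Psat1, an enzyme of serine synthesis, read 21.8, 33.7, 5.6 and 39.4 in primary samples, against 1011, 868, 1153 and 1126 in primordial samples (-4.20 ± 0.22, limma, adjusted p = 5.6e-14). Its primary samples all lay below 100. The primordial samples, where it was high, sufficed for it to be tested. Phgdh, the first enzyme of the same pathway, rose there with overlapping samples (2167, 1495, 1999 and 1746 in primary samples, against 1874, 777, 973 and 1298 in primordial samples; 0.30 ± 0.12, limma, adjusted p = 0.04). It fell in large against small antral oocytes (-0.65 ± 0.11, adjusted p = 0.0011). Asns, which makes asparagine, was not called at the start of growth and fell later (163, 201, 202 and 187 in secondary samples, against 414, 238, 269 and 269.9 in primary samples). In the list as a whole, 3 rose and 2 fell in secondary against primary oocytes, 3 fell in small antral against secondary, 1 rose and 2 fell in large against small antral, and 5 rose and 4 fell in large antral against primary. The shares of all probe sets called were 19.4%, 17.4%, 11.4% and 41.3% on 430A in the same order. On 430B they were 5.24%, 5.14%, 1.55% and 14.8%.

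**Figure D5:**
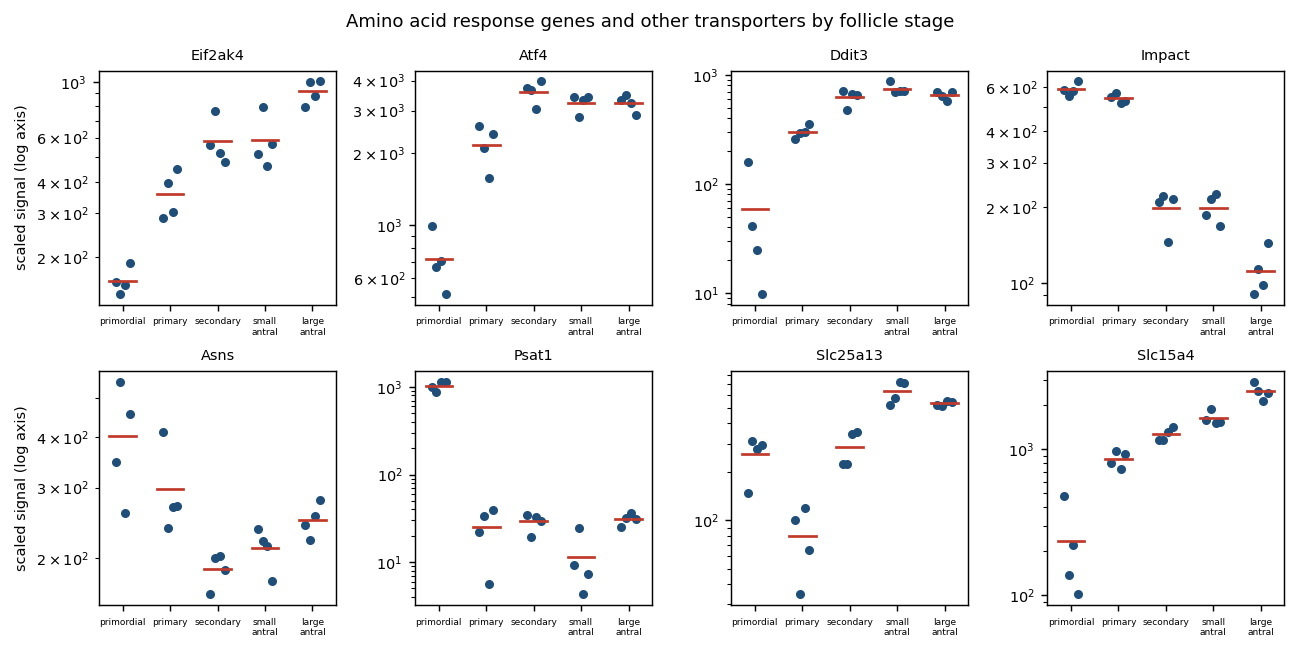
Scaled signal (log axis) of 6 amino acid response genes and 2 further carriers in the 4 samples of each of 5 stages (blue points; primordial values unmixed), with stage means (red lines). Atf4, Ddit3 and Eif2ak4 rise at the primary and secondary stages, Psat1 is high in primordial samples alone, and Slc15a4 rises at each stage.

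Markers of the cells around the oocyte moved with some of these changes. The summed signal of 11 tested granulosa and cumulus markers of 14 lay between 2932 and 3519.7 in primordial, 3589 and 4781 in primary, 3779 and 4447 in secondary, 4092 and 4855 in small antral, and 4703 and 5466 in large antral samples. Within that list Gja1, a gap junction subunit, rose at the small antral stage (339, 189.5, 212 and 402 in small antral samples, against 106, 95.0, 8.6 and 74.7 in secondary samples) and again in large antral oocytes (769, 794, 836 and 861), and Inha rose in small antral against secondary oocytes. Slc6a15, Slc7a11 and Slc7a6os also rose in small antral against secondary oocytes, and the part of these markers in those results was not tested. Large antral against primary, 4 of the 11 granulosa markers and 3 of 3 tested endothelial markers rose. Among the 12 oocyte markers, 3 rose and 8 fell there. Rises were called there in 19.6% of all probe sets on 430A and 7.16% on 430B, and falls in 21.6% and 7.63%. Nr5a2 of the granulosa list fell in large against small antral oocytes. Amh, a marker of granulosa cells in growing follicles, averaged 25.5 in large antral and 10.8 in primary oocytes, below the signal minimum, and no tested marker was at 0. Dcn, a stromal marker, averaged 31.7 in primary and 342.8 in primordial oocytes and was the 1 of 4 tested theca and stroma markers that fell at the step where Slc38a1, Slc38a2 and Slc36a4 fell. Krt18, of the granulosa list, averaged 37.8 in primary and 136 in primordial oocytes and fell there too, as did Lgals7, of the 4 tested surface epithelium markers, at 14.3 in primary and 104 in primordial oocytes. Nr5a2 of the granulosa list, Krt8 of the surface epithelium list and Tek of the endothelial list rose at that step. Past the primordial stage, means lay between 31.7 and 62.0 for Dcn, 33.4 and 49.9 for Krt18, and 14.3 and 26.1 for Lgals7. All of these were below the signal minimum, so Dcn, Krt18 and Lgals7 were tested mainly through the primordial samples, where they were high. The part of the falling and rising markers in the transporter changes was not tested. The summed signal of the 4 tested theca, stroma and fibroblast markers lay between 492 and 757 in primary samples, against 873 and 1661 in primordial samples. That of the 4 tested surface epithelium markers lay between 508 and 759, against 427 and 1296, and overlapped.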

How the data were processed

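The deposited values were linear array intensities, 1 per probe set and sample, made by the authors with MAS5, per the submitters' processing notes. RNA was isolated with a Picopure kit and amplified by Affymetrix small sample labelling, per the labels' protocols. After removal of control probe sets, scaling set the trimmed mean of every array to 500 (2% trimmed at each end), and log2(signal + 32) was taken. Probe sets with a signal of at least 100 in at least 4 of 20 arrays were tested, which left 15845 of 22626 on 430A and 19115 of 22411 on 430B. Precision is limited by how many arrays there are.

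limma 3.58.1 (R 4.3.3, moderated test with trend) was run on each array type by itself, with Benjamini-Hochberg adjustment over all tested probe sets and a threshold of 0.05. Growing stages were compared in a fit of 16 arrays (12 residual degrees of freedom), and primary against primordial oocytes in a fit of all 20 (15). In primordial replicates 2 to 4, between 49.4% and 50.2% of values lay off the 0.1 grid on which replicate 1 lay throughout. Unmixing them left 0 negative values, whereas the same arithmetic on 48 ordered pairs of samples from other stages gave 1120 to 2857 (430A) and 1989 to 3790 (430B). A gene was represented by 1 tested probe set, with 430A taken before 430B and then the highest mean log2 signal. Each gene's symbol came from the platform annotation, where a single symbol stood for 20380 of 22626 probe sets (430A) and 14565 of 22411 (430B).

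Genes named with full values were the largest called rises and falls without overlap of samples in each comparison, up to 4 each way, and a list of 12 transporters; the members, lists and tests were chosen with earlier results of these data known, and genes outside the rule were chosen after their values were seen. Replicate numbers did not pair samples: deviations of same-numbered samples correlated between -0.12 and 0.13 (430A) and between -0.04 and 0.06 (430B). Alternatives covered scaling, a smaller and a larger pseudocount, the filter, the arrays fitted, the representative probe set, the primordial values, the replicate block and leaving out each replicate. The fits were tested on simulated data. Promoters are RefSeq's (GRCm38.p6), with entries for 45 of 62 member genes. A further Slc38 gene is not reported here.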

Additional observations from a re-analysis of the deposited data

Results flagged for a closer look

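Of 120 groups of 4 samples, 7 held a sample whose gap to its nearest neighbour, as a share of the range of the group, exceeded Dixon's critical value; chance alone flags about 1 group in 20. On 430B the small antral values of Slc36a1 gave 0.847, with replicate 1 at 100.1 and the others between 453 and 582. Slc43a2 gave 0.863 at the same stage, with replicate 4 at 23.8 and the others between 188.5 and 242.5. Among large antral samples Slc7a5 gave 0.85 (replicate 3 at 255, the others between 311 and 322) and Slc6a4 gave 0.848 (replicate 3 at 282, the others between 249 and 254). Slc38a7 gave 0.906 among secondary samples, with replicate 2 at 2281 and the others between 1779.9 and 1822. In primordial samples replicate 1 was the low value for Slc38a10 (0.863; 1236, against 1878 to 2007) and for Slc43a3 (0.833; 5.1, against 88.6 to 121). Replicate 1 is also the sample from which the other primordial values were unmixed, and the part of the unmixing in these gaps was not tested.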

How the results depend on the processing

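Counts of called members moved by over 1.5 times in these settings. For primary against primordial, 8 fell with deposited values alone and 3 with the dimmest probe set of each gene, in place of 5. For secondary against primary, 2 fell in place of 4 under median scaling, with only the 2 stages fitted and with the dimmest probe set. For small antral against secondary, 5 rose in place of 3 under quantile normalization, and 1 fell in place of 2 under median scaling, with only those stages fitted and with the dimmest probe set. For large against small antral, limma called 1 rise in place of 0 (4 at an unadjusted p under 0.05) with the filter at 200, only the 2 stages, all 20 arrays, without the 430B arrays of conflicting protocol, and with the dimmest probe set. Changing the probe set turned Slc7a6os to -0.25, -0.96 and -0.07 in primary against primordial, small antral against secondary and large antral against primary, and Slc38a10 to 0.61 in large against small antral. Without the filter a dim 430A probe set stood for Slc1a5 and gave -0.98 in primary against primordial. Leaving out 1 replicate gave 12 to 15 rises and 5 to 7 falls in primary against primordial, 2 to 3 and 2 to 4 in secondary against primary, 2 to 4 and 1 to 3 in small antral against secondary, 0 and 1 to 3 in large against small antral, and 5 to 7 and 4 to 7 in large antral against primary. The replicate numbers shared only a number, and with them as a replicate block the counts stayed at 14 and 5, 3 and 4, 3 and 2, 0 and 2, and 7 and 6, with all 120 gene values on their side of the threshold. The larger pseudocount moved 0 of 120 values across it, and leaving out replicates moved 54 of 960. Signals near or below the minimum of 100 limit Slc1a1, Slc7a1 on 430A, Slc38a2, Slc38a1 on 430B and the early stages of Slc6a15.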
